A study of Caenorhabditis elegans with 5 samples.

Results

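C-type lectin genes are the clec genes of Caenorhabditis elegans, taken here as every gene of the deposited table whose name is clec followed by a number, which gave 249 of 42048 genes. A member counted as measured when its normalised read count reached 10 in at least 2 of the 5 libraries, and 86 of the 249 did, among 13787 measured genes in all. The tested libraries came from thoc-5(wy822) mutants (3 libraries, replicates 1 to 3) and were set against wildtype (2 libraries, replicates 1 and 2). Both groups carry the transgene edIs6, known as a fusion of unc-119 regulatory sequence to GFP that lights up neurons, and both were grown at 16 °C and sorted as neurons on day 1 of adulthood. THOC-5 belongs to the THO complex, which helps package new messenger RNA for export from the nucleus, and the comparison asks which transcripts differ when thoc-5 is mutated. The labels do not describe the wy822 lesion. They also leave unsaid whether replicates are separate worm cultures, and the spread that the p-values rest on may therefore be technical.

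C-type lectins share a protein fold first known for binding sugars in a calcium-dependent way, although many nematode members may not bind sugar. The family is greatly expanded in C. elegans, and many members are secreted proteins of the intestine and other tissues that face microbes. Transcripts of a subset are induced by bacterial infection, while CLEC-38 is known as a membrane protein that modulates axon growth downstream of netrin signalling. For most members no function is known, and the table gives names only, so membership here rests on the name and not on a domain search.

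The libraries held 6795756 to 8685349 reads on genes in the mutant group, against 10307701 and 10227501 in wildtype replicates 1 and 2. The labelled cell type was checked against a list of 20 pan-neuronal genes, which took 2.53%, 1.59% and 2.95% of the reads of mutant replicates 1 to 3, against 0.666% and 0.0559% in wildtype replicates 1 and 2. Both wildtype libraries thus lay below all mutant libraries, and neuronal share of reads and genotype varied together. Of the 20 genes, 18 had higher values in all mutant libraries than in wildtype, against 30.1% of all genes tested. Wildtype replicate 2 also stood apart, with unc-31 among the neuronal genes at 0 and with 13.5% of all tested genes at 0, against 2.28% to 6.64% in the mutant libraries and 3.96% in wildtype replicate 1. The mutated gene, listed as Y32H12A.2, had normalised counts of 78.3, 34.6 and 12.7 in the mutant libraries, against 154 and 122.2 in wildtype (log2 fold change -2.03, limma adjusted p = 0.148).

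Transcripts of C-type lectin genes took a smaller share of the reads in the mutant libraries. All 249 genes together took 0.0765%, 0.113% and 0.0827% of the reads of mutant replicates 1 to 3, against 0.429% and 0.163% in wildtype replicates 1 and 2. The groups did not overlap, and the mean share was 0.0908% ± 0.0197 in the mutant and 0.296% ± 0.188 in wildtype (SD, n = 3 and 2), 3.26 times lower in the mutant. An exact two-sided permutation test on the difference of means gave p = 0.1, the smallest that 3 against 2 libraries allow. The difference was -0.205 percentage points, and it was -0.0720 without wildtype replicate 1 and -0.338 without wildtype replicate 2. Without clec-1, the member of highest mean, the share was 0.0871% in the mutant and 0.209% in wildtype, still without overlap (p = 0.1 by the same exact test). Reads carry no molecular identifiers, and the exact 95% (Clopper-Pearson) intervals of the shares, for example 0.425% to 0.433% for wildtype replicate 1, cover counting error only. Fewer cells of a type and less RNA per cell cannot be told apart in these bulk libraries.

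**Figure D1:**
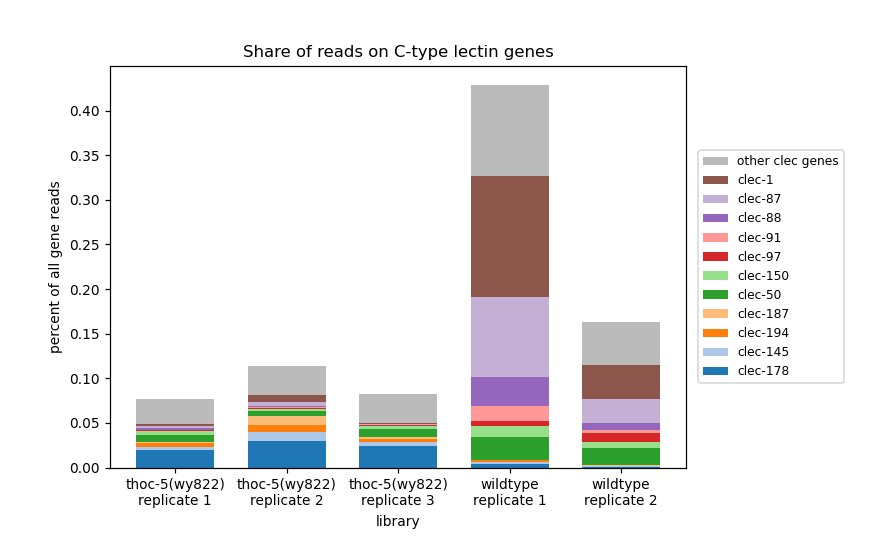
Percent of all gene reads that fell on C-type lectin genes in each library, stacked by gene, with thoc-5(wy822) libraries at left and wildtype at right. The mutant bars reach 0.0765% to 0.113%, and clec-178, whose reads may include some of skn-1, is their largest single-gene block. In the wildtype bars of 0.429% and 0.163%, clec-1 and clec-87 are the largest single-gene blocks.

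The composition of the lectin reads differed as well as their sum. clec-178 lies wholly opposite the span of skn-1, introns counted, on the other strand. Without strand, reads of exon bases that the pair may share cannot be told apart, which limits every value given for clec-178. Reads of clec-178 made up 25.5%, 25.8% and 29.4% of all C-type lectin reads in mutant replicates 1 to 3, against 0.98% and 0.49% in wildtype replicates 1 and 2. For clec-1 the shares were 3.18%, 6.61% and 1.64% in the mutant libraries, against 31.8% and 23.5% in wildtype. For clec-87 they were 3.16%, 3.57% and 0.93%, against 20.7% and 16.38%. On the scale of normalised count per kilobase of exon, clec-178 was the highest measured member in each mutant library (1798 to 3543), whereas clec-1 (15899 and 5388) and then clec-87 (8305 and 3018) led in both wildtype libraries. Below them in wildtype the order was not stable: clec-88 lay above clec-50 in replicate 1 (2416 and 2214 per kilobase) and below it in replicate 2 (679 and 1927).

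With a limma adjusted p of less than 0.05 required, 2 of the 86 measured members rose in the mutant, 16 fell and 68 did not pass. These are 2.33% and 18.6% of the measured members, against 6.97% and 5.92% of all genes tested that were called higher and lower. The median log2 fold change of the measured members was -1.34, beside 0.13 for all genes tested, on the log2(normalised count + 1) scale. Groups did not overlap for 12 members higher and 36 lower in the mutant (13.95% and 41.9%), against 30.1% and 26.5% of all genes tested. Members that reached the minimum through 1 group alone had to differ, so these counts describe the measured members and are no independent evidence. By the authors' deposited table, 7 of the 86 were called higher and 26 lower, against 14.9% and 11.3% of all genes tested, and all 18 limma calls were among them with the same sign.

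**Figure D2:**
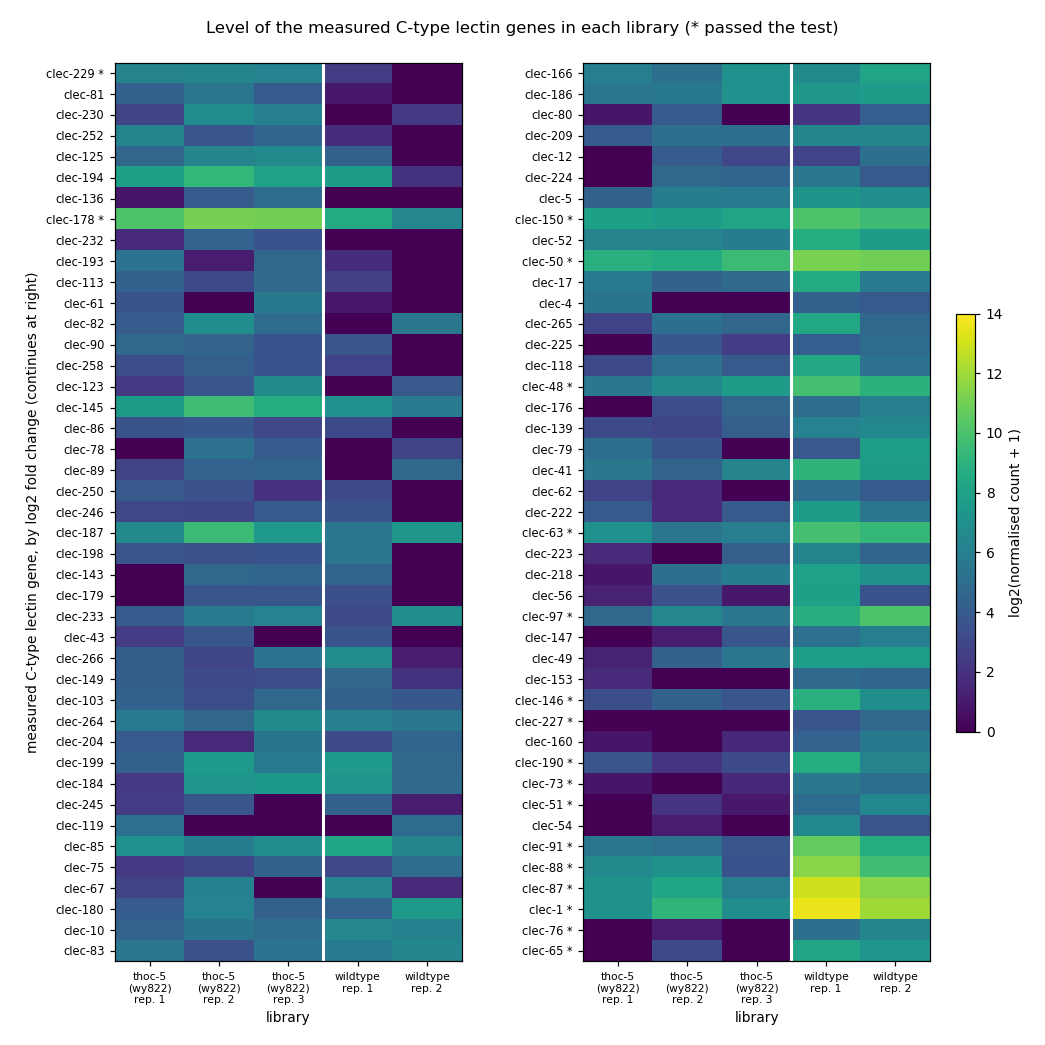
Level of each of the 86 measured C-type lectin genes as log2(normalised count + 1), one row per gene in order of log2 fold change and one column per library, thoc-5(wy822) libraries left of the white line and wildtype right of it. Asterisks mark the 2 genes that rose and the 16 that fell, and the darkest cells are genes without a read, frequent in wildtype replicate 2 among the genes of the left panel.

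clec-1, clec-87, clec-88 and clec-91 fell by the largest amounts among members with a mean of 50 or more other than clec-65, and each had its highest value in wildtype replicate 1. clec-1 (WBGene00017772, WBcel235 chromosome V, 5700154 to 5701080, plus strand) had normalised counts of 140.2, 568 and 115 in mutant replicates 1 to 3, against 12242 and 4149 in wildtype replicates 1 and 2. Its 5 values fell into separate ranges, and the log2 fold change was -5.08 (SE 0.83, limma adjusted p = 0.0382). clec-87 (WBGene00007709, chromosome I, 10184462 to 10185520, minus strand) had 139, 307 and 65.3 in the mutant libraries, against 7973 and 2897 in wildtype (log2 fold change -5.08, SE 0.77, limma adjusted p = 0.0382). clec-88 (WBGene00019606, chromosome II, 6365722 to 6367002, plus strand) had 94.8, 145.1 and 10.7 in the mutant libraries, against 2929 and 823 in wildtype (log2 fold change -4.83, SE 1.17, limma adjusted p = 0.0473). Mutant replicate 3 was the lowest library for all of these genes. clec-91 had 43.9, 36.8 and 12.7 in the mutant libraries, against 1584 and 403 in wildtype (log2 fold change -4.81, SE 0.85, limma adjusted p = 0.0384).

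A pair of less abundant genes had the same tilt within wildtype. clec-146 had 9.40, 18.97 and 12.7 in the mutant libraries, against 478 and 123 in wildtype replicates 1 and 2 (log2 fold change -4.11, SE 0.88, limma adjusted p = 0.0420). clec-190 had 11.7, 3.35 and 7.80, against 411 and 74.4 (log2 fold change -4.48, SE 1.08, limma adjusted p = 0.0468). For these and the preceding clec-1, clec-87, clec-88 and clec-91, wildtype replicate 1 was 2.75 to 5.52 times wildtype replicate 2. Several marker lists leaned the same way, with wildtype replicate 1 given before replicate 2. Shares of reads were 0.666% and 0.0559% for pan-neuronal, 0.0312% and 0.00432% for coelomocyte and 0.294% and 0.118% for oocyte and germline genes. Glia (0.0257% and 0.0127%), intestine (1.02% and 0.873%) and pharynx genes (0.0360% and 0.0330%) did so too. Epidermis, body wall muscle and sperm genes leaned the other way, and the part of these lists in the result was not tested.

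Another 4 of the 16 genes that fell were higher in wildtype replicate 2 than in replicate 1. clec-97 (WBGene00013931, chromosome I, 11152704 to 11154330, plus strand) had 25.1, 88.2 and 43.9 in the mutant libraries, against 453 and 1109 in wildtype (log2 fold change -3.91, SE 0.73, limma adjusted p = 0.0384). clec-51 had 0, 3.35 and 0.97 in the mutant libraries, against 28.8 and 92.4 in wildtype (limma adjusted p = 0.0488). clec-76 had 1 read over the 3 mutant libraries and 120 over the wildtype pair, with normalised counts of 0, 1.12 and 0 in the mutant, against 34.9 and 85. Per size factor it was 184 times lower in the mutant (95% counting interval 32.4 to 7321; limma adjusted p = 0.0397). Body wall muscle and sperm marker genes were also higher in wildtype replicate 2, at 1.74% and 0.0359% of reads, than in replicate 1, at 0.841% and 0.00937%. Epidermis genes were too, at 7.07% against 6.21%, and the part of these lists in the result was not tested. clec-227 had no mutant read and 12.2 and 24.4 normalised counts in wildtype, at least 18.9-fold lower against a floor of 3 reads over the mutant group (limma adjusted p = 0.0476).

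The remaining genes that fell differed by smaller factors between the wildtype libraries. clec-50 (WBGene00012253, chromosome V, 19752399 to 19755368, minus strand) kept a substantial level in the mutant, with 464, 394 and 756 normalised counts in the mutant libraries against 2325 and 2023 in wildtype (log2 fold change -2.07, SE 0.45, limma adjusted p = 0.0426). It was the second most abundant member in the mutant group by mean count, after clec-178. clec-150 had 246, 209.8 and 290.5 in the mutant libraries, against 1104 and 770.3 in wildtype (log2 fold change -1.90, SE 0.42, limma adjusted p = 0.0437). clec-48 had 48.6, 103.8 and 201 in the mutant libraries, against 900.1 and 517 in wildtype (log2 fold change -2.75, SE 0.69, limma adjusted p = 0.0493). These are the smallest falls among the called members, and in each the mutant range stayed below the wildtype range. clec-73 had 3 mutant reads and 84 wildtype reads, with 0.78, 0 and 1.95 normalised counts in the mutant against 47.1 and 31.9 in wildtype. Its ratio was 42.9 times lower in the mutant (95% counting interval 14.2 to 212; limma adjusted p = 0.0450).

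**Figure D3:**
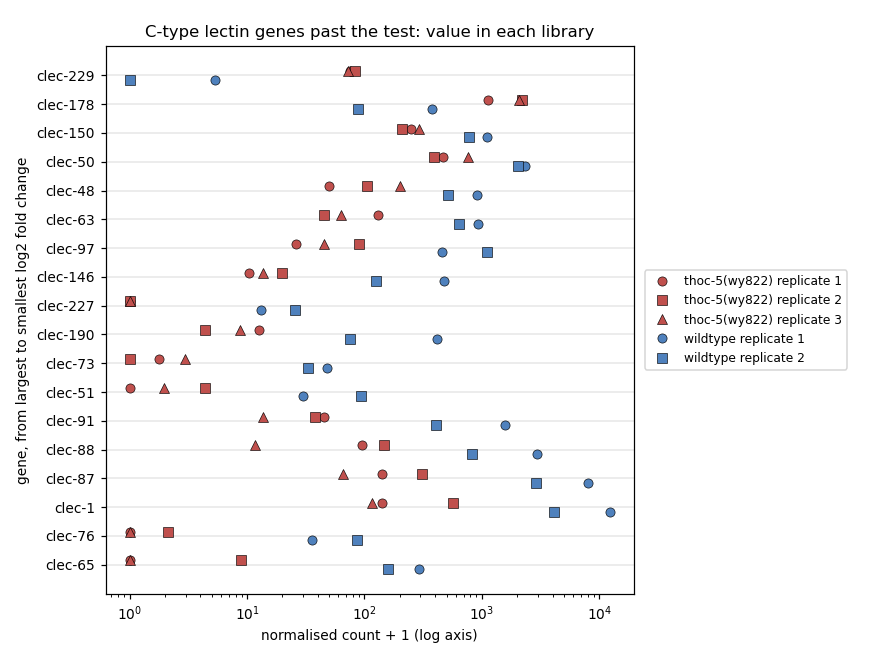
Normalised count + 1 on a log axis for the 18 C-type lectin genes that passed the test, with thoc-5(wy822) libraries in red above wildtype libraries in blue in each row. In every row the colours occupy separate ranges: clec-229 and clec-178 are higher in the mutant and the 16 other genes are lower.

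The 2 genes that rose were clec-178 and clec-229. clec-178 (WBGene00020585, chromosome IV, 5653949 to 5655003, plus strand) had 1126, 2218 and 2058 normalised counts in the mutant libraries, against 376 and 87.1 in wildtype (log2 fold change 3.24, SE 0.70, limma adjusted p = 0.0426). All 1055 bases of its span, introns counted, lie opposite skn-1, a gene for a stress-response transcription factor. Its exons cover 626 bases, and how many of these are shared with exons of skn-1 was not examined. The library kit named in the labels does not mark strand, so reads of any shared exon bases cannot be told apart. skn-1 itself had 961, 3578 and 4133 in the mutant libraries, against 855 and 731 in wildtype (log2 fold change 1.61, limma adjusted p = 0.142). clec-229 (WBGene00010355, chromosome V, 15340006 to 15341504, minus strand) had 74.4, 82.6 and 72.1 in the mutant libraries, against 4.36 and 0 in wildtype (log2 fold change 5.06, SE 1.05, limma adjusted p = 0.0413). The SD of the 3 mutant values of clec-229 was 5.50 normalised counts.

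In 10 further members all mutant values lay above both wildtype values although the test was not passed, and 7 of the 10 had no read in wildtype replicate 2. clec-145 had 197, 813 and 406 in the mutant libraries, against 134 and 54.2 in wildtype (log2 fold change 2.22, limma adjusted p = 0.0813). clec-194 had 239, 619 and 255, against 215 and 3.19 (log2 fold change 3.48, limma adjusted p = 0.154), so that its size came mainly from wildtype replicate 2. Without wildtype replicate 1, clec-194 and clec-125 passed the test with log2 fold changes of 6.33 and 5.90 (limma adjusted p = 0.0173 and 0.0423). clec-81 had 18.8, 43.5 and 14.6 in the mutant libraries, against 0.87 and 0 in wildtype, and missed the threshold narrowly (limma adjusted p = 0.0510). clec-187 overlapped between groups, with 99.5, 731 and 187.1 in the mutant libraries, against 44.5 and 169 in wildtype.

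Of 21 members known from infection studies to respond to bacteria, 14 were measured, 2 fell and none rose, with a median log2 fold change of -1.75. Over all genes tested 5.92% fell and 6.97% rose, and a count of 2 among 14 is too small to set this subset apart from them. clec-63 had 130.0, 44.6 and 62.4 normalised counts in the mutant libraries, against 918 and 639 in wildtype (log2 fold change -3.41, SE 0.60, limma adjusted p = 0.0384). clec-65 had 0, 7.81 and 0 in the mutant libraries, against 289 and 157 in wildtype (log2 fold change -6.70, SE 1.31, limma adjusted p = 0.0396). clec-62, clec-63, clec-64, clec-65 and clec-66 lie side by side on chromosome II (WBcel235, 12893062 to 12906644). clec-52 and clec-41 lay close to the threshold, with 76.0, 75.9 and 60.4 against 402 and 216 for clec-52 (log2 fold change -2.05, limma adjusted p = 0.0531) and 45.4, 21.2 and 77 against 559 and 202 for clec-41 (log2 fold change -2.97, limma adjusted p = 0.0538), mutant before wildtype. clec-49, known for a role in the response to Serratia marcescens, had 1.57, 18.97 and 44.8 in the mutant libraries, against 228 and 224 in wildtype (log2 fold change -4.09, limma adjusted p = 0.0730).

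The other measured genes of the bacteria-responsive set did not pass the test, and of these clec-83 and clec-186 alone had groups that did not overlap, beside clec-41, clec-49 and clec-52. clec-85 had 135, 58.0 and 115 in the mutant libraries, against 317 and 82.9 in wildtype (limma adjusted p = 0.510). clec-67, a gene that depends on the p38 kinase PMK-1, had 6.27, 71.4 and 0 in the mutant libraries, against 88.96 and 2.12 in wildtype (limma adjusted p = 0.756). clec-17 had 54.8, 18.97 and 27.3, against 370 and 51.0, and clec-186 had 44.6, 50.2 and 136, against 171 and 203 (limma adjusted p = 0.177 and 0.168). clec-4, clec-61, clec-82, clec-83 and clec-86 did not pass either, with adjusted p from 0.313 to 0.401. clec-39, clec-70 and clec-71 had no read in any library, and clec-7, clec-42, clec-60 and clec-66 had reads but stayed below the minimum. No library had a read of clec-38, the member known for axon growth, and a count of 0, with a limit of 3 reads, allows a share of up to 4.08e-05%, 4.41e-05% and 3.45e-05% of reads in mutant replicates 1 to 3, against 2.91e-05% and 2.93e-05% in wildtype.

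Members with small differences varied widely within groups. Among members with a mean of 50 or more, clec-264 had the smallest difference, with 55.6, 23.4 and 99.4 in the mutant libraries, against 66.3 and 44.6 in wildtype (log2 fold change -0.10, SE 0.84, limma adjusted p = 0.946). clec-199 had 18.8, 191 and 56.5, against 186.6 and 25.5 (log2 fold change -0.23, SE 1.25), and clec-184 had 3.92, 160.7 and 173, against 157 and 26.6 (log2 fold change -0.35, SE 1.74). Libraries of a single group thus differed several fold for these genes, and clec-233 likewise ran between 15.7 and 73.1 in the mutant libraries and from 7.85 to 121 in wildtype. A missed threshold here does not show equal levels, given these standard errors.

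The 163 members outside the measured set comprised 83 without a read in any library and 80 with reads below the minimum. At least 1 read was found for 98, 111 and 97 of the 249 members in mutant replicates 1 to 3, against 128 and 95 in wildtype replicates 1 and 2. Of the 80, 37 had reads in a single library. Just inside the minimum lay clec-250, whose second highest normalised count was 10.05, and just outside lay clec-106, clec-114 and clec-169 at 9.75.

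Genome position was matched in the Ensembl annotation of WBcel235 for 237 members, including all measured ones except clec-81. Members were most numerous on chromosome V (84, of which 25 measured), followed by IV (53, 25 measured), II (48, 18 measured), I (35, 9 measured), III (14, 5 measured) and X (3, all measured). The falls were spread over chromosomes I, II, III, IV and V, with 3, 4, 1, 4 and 4 genes. Counting protein-coding genes, 123 members stood next to another member, in 40 runs. The longest run, 13 genes on chromosome V (16839121 to 16869840), had no measured member, and 9 of its genes were without a read. In 11 neighbouring pairs both genes were measured; their fold changes had the same sign in 7, and in none did both pass. Neighbours could differ widely: clec-146 fell while the adjacent clec-145 was higher in every mutant library without passing, with the values given above.

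Overlapping genes may limit further values, since reads of exon bases shared with a partner on the opposite strand cannot be told apart. Overlaps were taken between whole gene spans, introns counted, so fewer exon bases may be shared than the counts below. Leaving out piRNA genes, 21 of the located measured members overlapped a gene on the opposite strand, 9 of them by 500 bases or more, and 6 of the 21 had passed the test. Beside clec-178 these 6 were members that fell: clec-87 shares 138 bases with iars-2, clec-97 shares 118 with clec-98, clec-150 shares 63 with the noncoding gene R06B10.8, clec-51 shares 58 with faah-1 and clec-91 shares 16 with ZK858.8. On its own strand clec-88 shares 7 bases with ctsa-4.1. Among members that did not pass and whose values are given above, clec-85 shares 1574 bases with Y54G2A.49 on the opposite strand, and 397 with Y54G2A.40 on its own. clec-233 shares 975 bases with F21H7.3, clec-145 shares 263 with Y48E1B.8 and clec-264 shares 26 with fkb-6, all on the opposite strand. clec-209 carried the same value in every library as F56A4.2, so that its separate level is uncertain.

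Other sugar-binding and immune genes were examined beside the C-type lectins. Galectins, sugar-binding proteins of an unrelated fold, gave no call among 12 measured genes. Their shares overlapped, at 0.295%, 0.464% and 0.435% of reads in the mutant libraries, against 0.416% and 0.605% in wildtype, and their median log2 fold change was -1.29. lec-5 came nearest to the threshold, with 79.9, 44.6 and 20.5 in the mutant libraries, against 366 and 212.5 in wildtype (log2 fold change -2.70, limma adjusted p = 0.0577). Among immune effectors other than C-type lectins 13 of 29 measured genes fell and 1 rose, against 5.92% and 6.97% of all genes tested. Their median log2 fold change was -3.42. The lysozyme gene lys-4 had 39.2, 50.2 and 44.8 in the mutant libraries, against 1974 and 610 in wildtype (log2 fold change -4.59, limma adjusted p = 0.0382). lys-10, also a lysozyme gene, had no mutant read and 61.9 and 85 in wildtype. Their summed share of reads did not follow this count, at 0.0663%, 0.105% and 0.140% in the mutant libraries and 0.1105% and 0.113% in wildtype. hsp-16.41, a heat shock gene in the list, had 2107, 2983 and 9439 in the mutant libraries, against 827 and 1153 in wildtype (limma adjusted p = 0.0901). The whole list summed to 3821, 7928 and 11859 normalised counts in the mutant libraries, against 9931 and 12267 in wildtype. hsp-16.41 thus held a large part of the mutant sums, and the share without it was not computed. Among 30 genes of immune signalling, which took 0.325%, 0.338% and 0.320% of reads in the mutant libraries, against 0.151% and 0.136% in wildtype, 3 rose and 1 fell, shares near the 6.97% and 5.92% of all genes tested: the p38 kinase genes pmk-2 and pmk-3 and the protein kinase C gene tpa-1 rose by 2.01, 2.31 and 2.00 on the log2 scale, and the STAT gene sta-2 had 54.8, 108 and 65.3 in the mutant libraries, against 391 and 460.1 in wildtype (limma adjusted p = 0.0417).

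**Figure D4:**
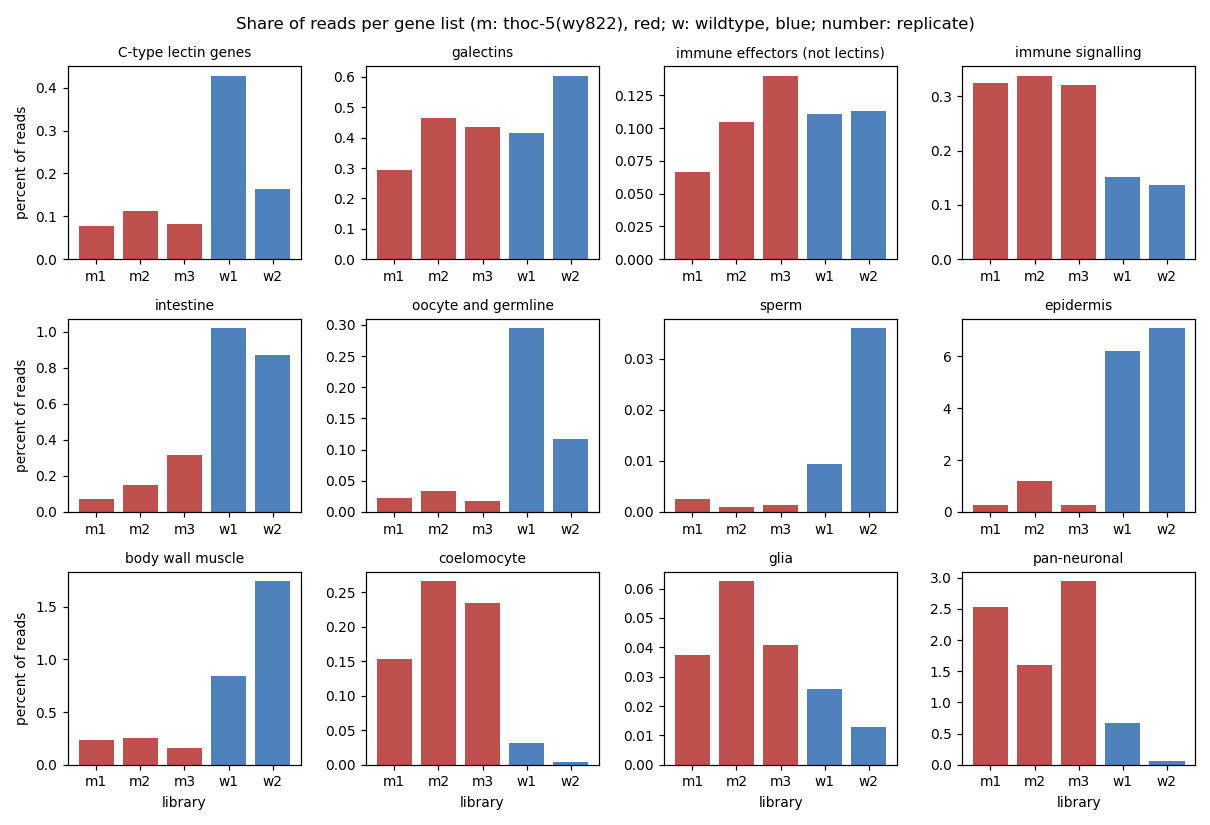
Percent of reads taken by each gene list, one panel per list with its own axis from 0, thoc-5(wy822) libraries m1 to m3 in red and wildtype w1 and w2 in blue. The summed share of C-type lectin genes is lower in all mutant libraries, as are those of intestine, oocyte and germline, sperm, epidermis and body wall muscle. Shares of pan-neuronal, coelomocyte, glia and immune signalling genes are higher in all mutant libraries, and those of galectins and other immune effectors overlap. The list of other immune effectors includes the heat shock gene hsp-16.41, which holds a large part of its mutant sums.

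Markers of several tissues other than neurons also took smaller shares of reads in the mutant libraries, as C-type lectin genes did. Their order among the libraries of a group was not always that of the C-type lectin genes. Over all genes tested, 5.92% fell, 6.97% rose and 47.7% had negative fold changes, which the counts below stand beside. Intestine genes, of which 21 of 21 measured had negative fold changes and 7 fell, took 0.0722% to 0.316% of reads in the mutant libraries, against 0.873% and 1.02% in wildtype. elt-2, ges-1, mtl-1, fat-7 and ftn-1 were at 0 in mutant replicate 1, and mtl-1 and fat-7 in mutant replicate 3. Oocyte and germline genes were negative for 18 of 18, and 11 fell, at 0.0170% to 0.0343% of reads in the mutant against 0.118% and 0.294% in wildtype, with spn-4 at 0 in mutant replicate 1 and oma-1, oma-2, mex-5 and egg-2 at 0 in mutant replicate 3. For sperm genes 4 of 11 fell, with shares of 0.000912% to 0.00247% against 0.00937% and 0.0359%. msd-1, spe-38 and spe-42 were at 0 in all mutant libraries. spe-38 was at 0 in both wildtype libraries as well, and spe-42 had 6.11 and 0 there. Epidermis genes had shares of 0.265% to 1.21% against 6.21% and 7.07%, but the list did not move as a whole: 10 of 18 measured genes had negative and 8 positive fold changes, with a median of -0.13 on the log2 scale. The 2 epidermis genes that fell were the collagen genes col-19 and col-140, and col-140 had 5324, 30519 and 9137 normalised counts in the mutant libraries, against 348350 and 325717 in wildtype. The collagen gene col-124, which did not pass, had 4446, 36456 and 7295, against 150416 and 370036. All epidermis genes together summed to 558179 and 768285 in wildtype replicates 1 and 2, so these collagen genes held most of the wildtype share. Among the epidermis genes that did not pass, elt-1 and rol-6 had higher values in all mutant libraries than in wildtype. bli-1 was at 0 in mutant replicates 1 and 3 and dpy-7 and bli-2 in mutant replicate 1, but dpy-7 was low in wildtype too, at 4.36 and 2.12. Body wall muscle genes had 0.158% to 0.259% against 0.841% and 1.74%, with 15 of 16 fold changes negative, 9 genes lower and hlh-1 at 0 in wildtype replicate 2. Pan-neuronal genes had positive fold changes for 20 of 20, and 10 rose. Coelomocyte genes took 0.153% to 0.266% in the mutant against 0.00432% and 0.0312% in wildtype, and 2 of 3 rose. Glia genes (0.0373% to 0.0625% against 0.0127% and 0.0257%) and pharynx genes (0.0431% to 0.267% against 0.0330% and 0.0360%) gave no call among 9 and 11 measured genes. Fold changes were positive for 6 of 9 glia genes and 11 of 11 pharynx genes. The pharynx share of 0.267% was that of mutant replicate 2, beside 0.0431% and 0.0451% in mutant replicates 1 and 3. The part of these tissues in the C-type lectin results was not tested.

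The calls depended on which libraries were included. The smallest adjusted p over all genes was 0.0382, and 0 members were called in limma once wildtype replicate 2 or a single mutant library was dropped (30 to 36 of 86 at an unadjusted p below 0.05), while without wildtype replicate 1 there were 4 called higher and 4 lower (against 15.7% and 3.48% of all genes tested in that fit), 6 of them among the 18 (clec-87, clec-97, clec-76, clec-227, clec-178 and clec-229). edgeR called 0 members (36 at an unadjusted p below 0.05) and DESeq2 called 6 higher and 26 lower (against 15.4% and 11.6% of all genes tested), which included all 18, and no fold change of the 18 turned its sign in any of these fits.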

How the data were processed

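RNA of sorted neurons was sequenced in 5 libraries. The submitters' processing notes name Trim Galore, STAR 2.4.2a, DESeq2 and the build ce10; how reads were assigned to genes is not given in the sources used here. Deposited values are a signal: read counts per gene, scaled by the authors with a size factor for each library. The authors' log2 fold change and its error, a test score, and their p-value with its adjusted form stand beside them, per the file headers. Whole reads were recovered, since 100% of values were whole multiples of 1 read within 1e-04 reads. From these reads DESeq2 called 3718 genes and edgeR 0.

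Genes that reached 10 normalised reads in 2 libraries or more were tested by limma 3.58.1 (R 4.3.3, trended eBayes) on log2(normalised count + 1), two-sided, with Benjamini-Hochberg adjustment over 13787 genes and a threshold of 0.05. Fold changes are mutant minus wildtype on that scale, which understates changes of low genes. As alternatives the replicate number was added as a block, the pseudocount was set to 0.5 or 8, the filter was dropped or raised to 50, upper quartile or quantile normalisation was applied, edgeR 4.0.16, DESeq2 1.42.0 or the authors' p-values were used, and each library was left out; a lone wildtype library was then assumed to vary like the mutant libraries. Ratios with 1 to 3 reads in a group are per size factor, with exact 95% binomial intervals. The scripts were tested on simulated counts.

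Members and lists were chosen with earlier results of these data known. By rule the text names called members, the 10 of highest mean, clec-38 and the bacteria-responsive members. At a mean of 50 or more it also names the 5 largest fold changes each way and the 5 smallest differences. The 2 genes of smallest p are named for immune effectors, immune signalling and epidermis, but this rule was not followed for the remaining lists. Further genes were named after their values were seen. Positions are from Ensembl's WBcel235, not ce10, and no sequence was used here.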

Additional observations from a re-analysis of the deposited data

How the results depend on the processing

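The count of all genes called in limma was 1777, and it was 3217 with a pseudocount of 8, 1079 with no filter, 2998 with quantile normalisation, 3718 in DESeq2, 3597 in the authors' deposited table and 0 in edgeR (3869 at an unadjusted p below 0.05), and ranged from 0 to 2647 when 1 library was left out. For C-type lectin genes the count of 18 became 32 in DESeq2, 33 in the authors' table and 0 in edgeR, and ranged from 0 to 8 without 1 library; pseudocounts, filters and scaling kept it between 12 and 25. For bacteria-responsive members the count of 2 became 5 with a pseudocount of 8, 4 with upper quartile scaling, 5 with quantile normalisation, 6 in DESeq2, 5 in the authors' table and 0 in edgeR or without any 1 library. For the other lists together 63 calls became 101 in DESeq2, 99 in the authors' table and 0 in edgeR, and 0 to 59 without 1 library. The cause was not tested. With the replicate number as a block, which leaves replicate 3 unpaired, 0 genes, 0 C-type lectin genes, 0 bacteria-responsive and 0 other list genes were called (3951 genes at an unadjusted p below 0.05); the labels give the groups shared numbers only, and deviations of same-numbered libraries correlated at 0.0093 and 0.11. The difference in share of reads kept its sign in all alternatives, from -0.338 to -0.0720 percentage points without 1 library. Of 37 named members 7 turned sign, none of them called. Without 1 library their log2 fold changes ranged from -1.61 to 1.34 (clec-184), -1.64 to 1.18 (clec-199), -1.58 to 2.21 (clec-233), -0.57 to 0.44 (clec-264), -3.48 to 1.37 (clec-67), -0.30 to 5.28 (clec-82) and -1.70 to 0.22 (clec-85). clec-184 was 0.12 in edgeR, 0.29 in DESeq2, 0.25 in the authors' table; clec-233 was -0.11 with the replicate block, -0.40 in edgeR, -0.44 in DESeq2 and -0.38 in the authors' table; clec-264 was 0.0020 in edgeR, 0.10 in DESeq2 and 0.10 in the authors' table; clec-67 was 0.45 with the block. Depth limits members with few reads, whose fold changes depend on the value added before the log.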

Other observations

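A small number of C-type lectin genes below the minimum had most of their reads in a single library. clec-21 had 221 normalised counts in mutant replicate 2, none in the other mutant libraries, and 0.87 and 0 in wildtype. clec-210 had 0.78, 4.46 and 107 in mutant replicates 1 to 3 and no wildtype read. clec-183 had no mutant read, with 237 and 1.06 in wildtype replicates 1 and 2. clec-66 had 0, 8.93 and 0 in the mutant libraries, against 130.0 and 2.12 in wildtype. These were the 4 members outside the measured set that reached 100 in a library, and they were named after their values were seen.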
